A study of Mus musculus with 6 samples.

Results

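Regions centred on the endogenous retroviruses ETn and MMERVK were examined in a list from chromatin immunoprecipitation and sequencing (ChIP-seq) of PHF13 in mouse testis. PHF13, whose other name SPOC1 is used for the libraries, is a nuclear protein whose PHD finger binds methylated histone H3. A region was a member if it lay on chromosomes 1 to 19 or X, if the repeat at its centre was of the LTR class, and if the name of that repeat contained ETn or MMERVK. By this rule 469 of the 39096 regions in the list were members. They were 2.04% of the 23030 regions on these chromosomes (Wilson 95% interval 1.86 to 2.23%) and 11.8% of the 3966 LTR regions there (10.9 to 12.9%).

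The series comprised 6 libraries from testis of C57Bl/6 mice aged 5 weeks, 3 of SPOC1 ChIP and 3 of input. By the labels, 1 ChIP library was wild type and 2 were Phf13-/-, and 2 input libraries were wild type and 1 was Phf13-/-. These labels conflict for replicate 2, which is wild type in its input library and Phf13-/- in its ChIP library. The deposited list covers the whole series, with 0 columns of values per library, and the sources used here do not give the libraries it was called from. There was therefore no replicate error, the depth was unknown, and neither ChIP against input nor genotype could be compared. The regions are not called PHF13 binding sites for this reason. The intervals given for shares cover counting error only, and no test was run over regions, which are not replicates.

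ETn elements, or early transposons, are mouse retrotransposons that have lost their own protein-coding genes and move with proteins supplied by related proviruses. Their name comes from their transcription in the early embryo, and their insertion into introns is a known source of mutations in laboratory mice. MMERVK10C is a provirus of the ERVK class, with genes for retroviral proteins. In early embryonic cells both kinds of element are silenced by the TRIM28 and SETDB1 pathway, which places H3K9 methylation. A full copy consists of an internal part, written "-int" in the repeat names, between a pair of long terminal repeats (LTRs).

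All 469 members were centred on an internal part and belonged to the ERVK family. How reads were placed among the copies of these repeats was not tested, a limit that holds for every member. ETn names accounted for 255 members. Of these, 206 were MMETn-int, 32 were ETnERV3-int, 10 were ETnERV-int and 7 were ETnERV2-int. The grouping is by name only, and which of these regions lie in copies with protein-coding genes was not tested. MMERVK names accounted for 214 members, with 190 at MMERVK10C-int and 24 at MMERVK9C_I-int. MMETn-int and MMERVK10C-int thus made up 43.9% and 40.5% of the members. The LTR RLTRETN_Mm, whose capital N keeps it outside the rule, lay at the centre of 1 region on the same chromosomes. That region was 1016 bp long and had a score per kb of 18.0.

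The authors gave each region 1 score. Its unit is not stated, and since it grew with region length it was divided by length (score per kb). The score was highest per kb at MMERVK10C-int, with a median of 28.6 (quartiles 24.3 and 31.7). At ETnERV-int the median was 23.7 and at MMETn-int it was 21.8 (quartiles 18.3 and 24.9). The names at the low end were ETnERV3-int with 15.4, ETnERV2-int with 12.7 and MMERVK9C_I-int with 11.9. All regions on these chromosomes had a median of 28.0 with quartiles of 22.0 and 32.7. MMERVK10C-int thus lay near the middle of the list, with 52.8% of all regions below its median, while 24.3% were below that of MMETn-int and 5.63% below that of MMERVK9C_I-int.

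**Figure D1:**
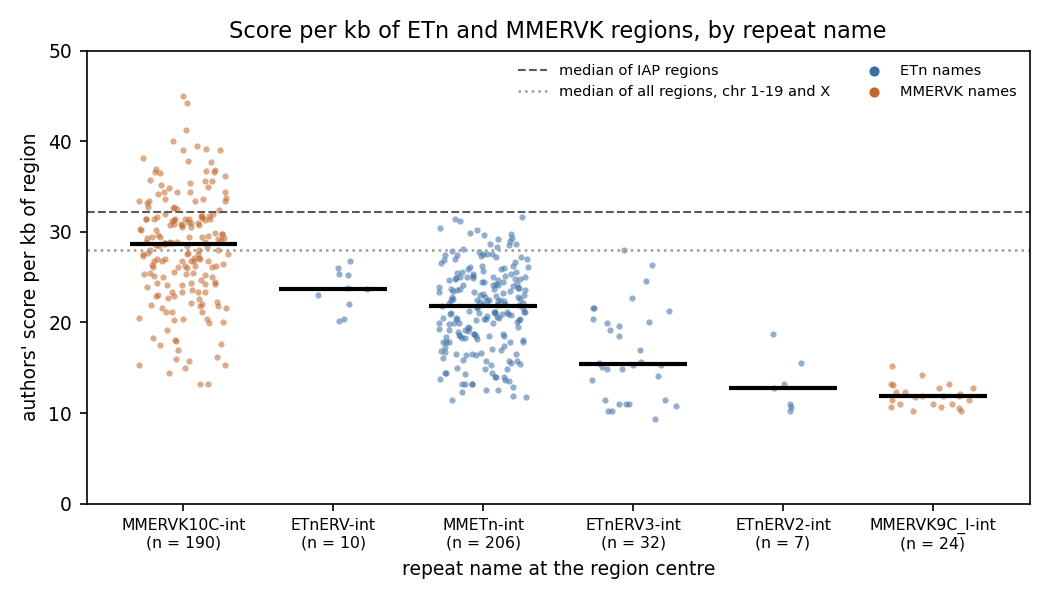
Each point is 1 member, placed by the repeat name at its centre (x axis) and by the authors' score per kb of region (y axis). Black bars are medians, from 28.6 at MMERVK10C-int to 11.9 at MMERVK9C_I-int, and the dashed and dotted lines are the medians of IAP regions (32.2) and of all regions (28.0).

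Grouped, ETn regions had a median score per kb of 21.1 (range 9.34 to 31.7) and MMERVK regions one of 27.6 (range 10.2 to 45.0). The difference of the median log2 score per kb, ETn minus MMERVK, was -0.39. The ranges overlapped from 10.2 to 31.7, and the upper quartile of MMERVK regions was 31.4. Of the 255 ETn regions, 0 were above the upper quartile of all regions. A count of 0 allows a share of up to 1.18% if the regions are independent. Many of them came as pairs, described below, so this limit may be too low. Of the 190 MMERVK10C-int regions, 40 were above the upper quartile of all regions (21.1%). The 24 MMERVK9C_I-int regions and the 7 at ETnERV2-int all lay below the lower quartile of the list, together with 28 of 32 at ETnERV3-int and 106 of 206 at MMETn-int.

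The size of the difference varied with length. Among regions of exactly 500 bp, the most common length, the median score per kb was 28.0 at the 57 regions of MMERVK10C-int and 17.8 at the 42 of MMETn-int. In the class over 500 and up to 1000 bp it was 28.9 at 63 MMERVK10C-int regions and 21.0 at 87 of MMETn-int. In the class over 1000 and up to 1500 bp it was 27.6 at 27 MMERVK10C-int regions and 24.9 at 31 of MMETn-int. Over 1500 and up to 2000 bp it was 30.8 at 21 MMERVK10C-int regions and 21.5 at only 2 of MMETn-int. In the class over 2000 and up to 2500 bp the values were close, 24.7 at 15 MMERVK10C-int regions and 23.6 at 10 of MMETn-int. Over 2500 and up to 3000 bp they were 30.6 at 6 and 24.3 at 32 regions. The score per kb rose with length at MMETn-int (Spearman's rho 0.55 over 206 regions) and hardly at MMERVK10C-int (0.10 over 190 regions). These coefficients describe the list, since score and length of a region come from the same call. With chromosome Y and the unplaced contigs added, the ETn minus MMERVK difference turned to 0.20.

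IAP elements are another ERVK family, still mobile in mice, and supplied 1917 regions with a median score per kb of 32.2. MERVL and its LTR MT2_Mm, active in the early embryo, supplied 909 with the same median of 32.2. The members together had 23.4, a log2 difference of -0.46 from IAP and of -0.46 from MERVL. Only at MMERVK10C-int were there members above the IAP median, 43 of 190 (22.6%). At equal length of 500 bp the IAP median was 29.4, against 28.0 at MMERVK10C-int and 17.8 at MMETn-int.

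The highest scores among the members belonged to MMERVK10C-int. The first was an intergenic region of 3496 bp on chromosome 12 (67455168 to 67458664, build mm10) with a score of 100.9, which was also the longest member. It lay 212 kb from the transcription start site (TSS) of the pseudogene Gm17821. The next were on chromosome 10 (7892355 to 7894745, score 87.3), 57.2 kb from the microRNA gene Mir5104, and on chromosome 14 (105759664 to 105761933, score 85.6), 136 kb from Spry2, an inhibitor of growth factor signalling. Scores of 84.5 were given to a region on chromosome 1 (8191707 to 8194477), 1104 kb from Pcmtd1, and to 1 on chromosome 8 (60739924 to 60742470), 85.6 kb from Mfap3l. All 5 were intergenic.

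The highest scores at ETn names all belonged to MMETn-int and lay close together, from 75.8 to 78.8. The first was on X (38713902 to 38716661, score 78.8), 57.5 kb from 6030498E09Rik. The next was on chromosome 5 (89205404 to 89208270, score 78.4), in intron 18 of 25 of Slc4a4, a sodium bicarbonate cotransporter. The TSS nearest to it was that of Gc, the vitamin D binding protein. The others were on chromosome 16 (81748423 to 81751306, score 76.5) near the neural adhesion gene Ncam2, on chromosome 6 (134011045 to 134013808, score 76.2), 23.3 kb from the transcriptional repressor gene Etv6, and on chromosome 3 (7563928 to 7566774, score 75.8), 48.1 kb from the cytokine gene Il7. All 5 were between 2759 and 2883 bp long.

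The regions with the highest score per kb were others than those with the highest score. At MMERVK10C-int the highest values were 45.0 near Gpa33 on chromosome 1 (166175703 to 166176203), 44.2 near the endocytic adaptor gene Dab2 on chromosome 15 (6198677 to 6199177) and 41.2 in intron 1 of 52 of Dock3 on chromosome 9 (107214477 to 107214977). Next were 40.0 in an intron of the zinc finger gene Zfp600 on chromosome 4 and 39.5 at a region of 1550 bp, 282 kb from the cartilage matrix gene Matn1. The first 4 of these were 500 bp long. At MMETn-int the highest values reached 31.7 near Mir6238 on chromosome 7 (53885789 to 53886559), 31.5 near the bile acid transporter gene Slc10a2 on chromosome 8 (5222430 to 5223390), 31.2 in an intron of Kbtbd12, 30.4 near Parp11 and 30.2 near the centromere protein gene Cenpw. These ETn regions were 770 to 1012 bp long.

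The minor names had their own limits. Among the 10 regions at ETnERV-int the score ran from 10.2 to 29.3, and the top region, of 1455 bp, lay on chromosome 6 (132455624 to 132457079), 92.2 kb from Gm4736. The 32 regions at ETnERV3-int ran from 4.67 to 28.5, with the top on chromosome 13 (65719374 to 65720800). The 7 regions at ETnERV2-int ran from 5.10 to 9.77. They lay in 2 kinds of place: 3 on chromosome 4 were nearest to the major urinary protein genes Mup1, Mup13 and Mup14, which encode pheromone carriers, and 4 on X were nearest to the predicted genes Gm3706, Gm10922, Gm21637 and Gm2837. Placement of reads among the similar copies of the Mup family is uncertain.

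Region length separated MMETn-int from MMERVK10C-int in shape more than in the median. The median was 897 bp at MMETn-int and 814 bp at MMERVK10C-int, and 807 and 767 bp over all ETn and all MMERVK names. At MMETn-int the lengths fell into 2 classes. Of the 206 regions, 160 were 1500 bp or shorter, 2 were between 1500 and 2000 bp, and 44 were from 2357 to 3028 bp with a median of 2649 bp. At MMERVK10C-int 21 regions lay between 1500 and 2000 bp and no such gap was seen. The 44 long MMETn-int regions had scores of 34.2 to 78.8 with a median of 63.6.

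Short MMETn-int regions often came as pairs. When members within 10 kb of each other were joined, the 469 regions formed 362 loci, of which 264 held 1 member, 89 held 2 and 9 held 3. In all 43.7% of the members (205) shared a locus with another. The names were the same within 95 of the 98 loci of 2 or more members. MMETn-int alone formed 52 pairs, and in 47 of them both regions were shorter than 2000 bp. These 47 pairs spanned 2021 to 2916 bp with a median of 2561 bp, close to the 2649 bp of the long single regions. The gap between the regions of a pair had a median of 781 bp (range 517 to 1427 bp). Over all regions on these chromosomes the smallest gap between neighbours was 500 bp. Whether the peak settings decided between a pair and a long region was not tested. The summed score of the 47 pairs had a median of 36.8, against 63.6 for a long region. The other 5 pairs held a long region and spanned 3737 to 4543 bp.

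MMERVK10C-int formed 32 pairs and 7 triplets. Pairs of regions that were both under 2000 bp numbered 24 and spanned a median of 3174 bp, and the triplets spanned 3201 to 5583 bp with a median of 4286 bp. The triplets lay near or in 7 genes. In Dock3, an activator of the small GTPase Rac, the scores from left to right were 20.6, 57.1 and 33.3. In Cmc1, a factor for cytochrome oxidase assembly, they were 28.0, 32.3 and 28.5. Near Mbd2, which binds methylated DNA, they were 31.4, 62.2 and 15.7. The middle region was the highest in all 3 of these genes. Near Mms22l, a gene of recombination repair, the first scored highest and the others had 14.0 each. Near Lrrc3b they were 29.3, 22.9 and 18.9. The remaining triplets were nearest to the noncoding genes 4933433F19Rik, where the middle region again scored highest with 57.6, and 4930529K09Rik, with scores of 17.8, 13.4 and 33.6.

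A mixed locus on chromosome 16, nearest to Ncam2, held MMERVK10C-int regions with scores of 15.7 and 31.6 and, 5082 bp further on, the MMETn-int region with 76.5. For comparison, 53.9% of MMETn-int regions (Wilson 95% interval 47.1 to 60.6%) and 42.6% of MMERVK10C-int regions (35.8 to 49.7%) had any region of the list within 2 kb. Among IAP regions this share was 46.4% (44.2 to 48.6%) and among all regions 39.1%. A neighbour of the same name was present for 104 of the 111 such regions at MMETn-int (93.7%), against 95.7% at IAP and 88.9% over all regions. At MMERVK10C-int the other names within 2 kb included RLTR10C, an LTR, in 4 cases.

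The members lay mainly between genes. By the class in the list 398 were intergenic (84.9%, Wilson 95% interval 81.3 to 87.8%) and 71 were intronic (15.1%, 12.2 to 18.7%), with 0 in any other class. The intronic share was 16.9% for ETn names (12.8 to 21.9%) and 13.1% for MMERVK names (9.21 to 18.3%). The difference of 3.78 percentage points had a Newcombe 95% interval of -2.82 to 10.2, which includes 0. Among IAP regions 20.0% were intronic (18.2 to 21.8%), among MERVL and MT2_Mm regions 31.4% (28.4 to 34.4%) and among all regions 21.0%. Members minus IAP gave -4.84 points (-8.33 to -0.91) and members minus MERVL gave -16.2 points (-20.5 to -11.6). All these intervals treat regions as independent, yet 43.7% of the members shared a locus with another, so they may be too narrow. Of the 54 members on X, 0 were intronic by the class in the list. The differences from IAP and MERVL without X are not given here. By the RefSeq gene table, which also holds noncoding genes, 74.2% of the centres lay outside any gene.

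**Figure D2:**
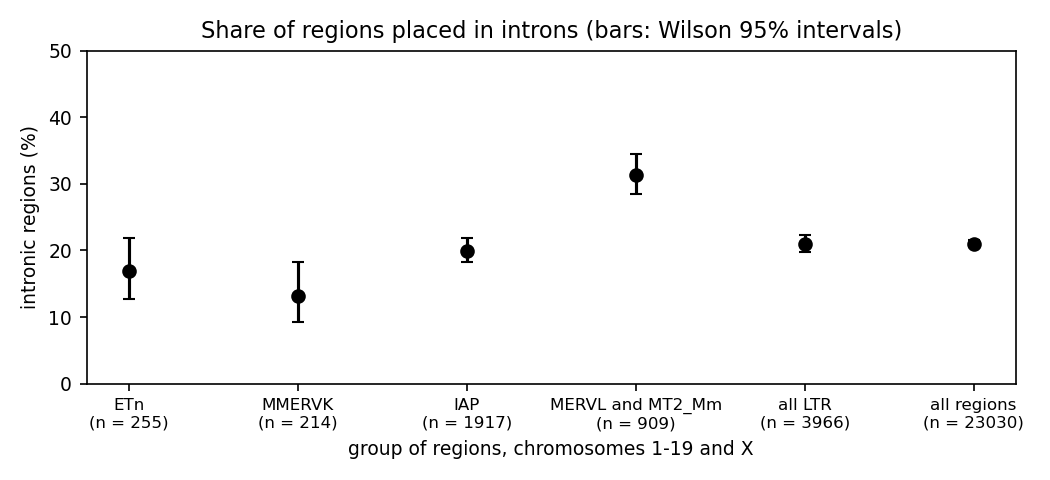
Share of regions in introns (y axis, percent) for ETn and MMERVK names, IAP, MERVL with MT2_Mm, all LTR regions and all regions on chromosomes 1 to 19 and X (x axis); points are shares and bars are Wilson 95% intervals. ETn (16.9%) and MMERVK (13.1%) have overlapping intervals, and both lie below the interval of MERVL with MT2_Mm. The intervals treat regions as independent and may be too narrow.

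By name, 8 of 32 regions at ETnERV3-int, 34 of 206 at MMETn-int and 28 of 190 at MMERVK10C-int were intronic. At MMERVK9C_I-int 0 of 24 were by the class in the list, which allows a share of up to 12.5% if the regions are independent. All 24 lay in a single stretch of X, described below, so this limit may be too low. The median score per kb was 23.2 at intronic and 21.2 at intergenic MMETn-int regions, and 31.1 at intronic and 28.0 at intergenic MMERVK10C-int regions. Intron 1 held 26 of the 71 intronic members.

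Host genes were taken from the transcript named in the list and checked against RefSeq coordinates. For 65 of the 71 intronic members the centre lay inside the named gene, which gave 49 host genes. For 5 the named transcript is placed elsewhere by RefSeq and for 1 no match was found. The TSS nearest to the region was that of the host gene in 46 cases. The highest intronic score, 82.2, was at MMERVK10C-int in intron 1 of 7 of Ust, a sulfotransferase that acts on chondroitin and dermatan sulfate (chromosome 10, 8399271 to 8401802). The Slc4a4 region described above came next. A region with 69.7 on chromosome 1 had a transcript named (Mir467e) that RefSeq places elsewhere. Ptprd, a receptor tyrosine phosphatase, had an MMETn-int region with 69.0 in intron 3 of 39, and Tex21, named for expression in testis, one with 63.9. Ankub1 had a region with 63.5, Cfap20dc one with 62.4 and the muscle gene Cmya5 one with 61.2. A region nearest to 4930558C23Rik, with 63.5, had a transcript that did not match.

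Wiz and Terb1 were host genes picked after the values were seen. Wiz encodes a zinc finger partner of the H3K9 methyltransferase G9a, and Terb1 a protein that tethers telomeres in meiosis. Wiz held an MMETn-int region with a score of 30.8 in intron 2 of 8, and Terb1 an MMERVK10C-int region with 23.1 in intron 16 of 19. A list of 29 genes held Phf13 itself and genes with known roles in silencing of retroviruses, among them Trim28, Setdb1, Dnmt1, Morc1 and Piwil4. Of the 29, 3 were nearest to any region on chromosomes 1 to 19 and X and 0 were nearest to a member. With 3 genes, nothing can be read from this count.

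The share of members close to a TSS was near that of all regions. By the nearest TSS given in the list, the median distance was 66.8 kb (quartiles 22.9 and 171 kb), against 79.9 kb for IAP regions and 108 kb for all regions. For ETn names it was 59.4 kb and for MMERVK names 73.1 kb. Upstream and downstream positions were nearly equal in total, with 233 and 236 members. Intergenic members numbered 218 upstream and 180 downstream, and intronic members 15 and 56. The intronic split follows in part from placement, since the nearest TSS was that of the host gene in 46 cases. Nothing is read from it. Within 1 kb of the TSS named in the list there were 0 of the 469 members, and within 5 kb there were 11. The count of 0 allows a share of up to 0.64% if the regions are independent, a limit that may be too low. The shares of all regions within 1 and 5 kb are not given here, so nothing is read from these counts. Within 10 kb there were 33 members (7.04%, against 6.76% of all regions). ETn names supplied 23 of these 33.

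By the list, the closest was an MMETn-int region 2.82 kb upstream of Cyb5r1, a cytochrome b5 reductase (chromosome 1, 134402609 to 134403724, score 27.8). The other region of that pair lay 4.63 kb upstream and had 32.5. MMERVK10C-int regions lay 3.09 kb upstream of the lectin gene Cd209c (score 21.4), 3.11 kb upstream of the pseudogene Olfr1372-ps1 (17.2), 4.36 kb upstream of Zfp488 (49.3) and 5.60 kb upstream of Gm13290 (19.3). An MMETn-int region with a score of 6.58 lay 3.47 kb upstream of Gmnn, which encodes the replication licensing inhibitor geminin. Downstream of the TSS, MMETn-int pairs lay at Mir6238 (3.79 and 5.71 kb, scores 9.34 and 24.4) and at the lectin-like gene Clec2g (4.20 and 6.02 kb, scores 13.0 and 9.34). Single MMETn-int regions lay downstream of 4930558C23Rik (4.71 kb, 63.5) and of the pheromone receptor gene Vmn2r21 (5.18 kb, 7.01). An ETnERV2-int region lay 4.16 kb from Mup14 (9.34) and an ETnERV3-int region 4.36 kb from the odorant receptor gene Olfr461 (10.8). For Olfr461, Vmn2r21 and Mup14, members of gene families with near-identical copies, reads may have been placed at the wrong copy. The same may hold for the copies of the repeats at all members.

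A single member overlapped a promoter window of the RefSeq table (250 bases before to 50 after a start, GRCm38.p6), among 459 on chromosomes with windows. In comparison 34 of 22338 regions did so (0.152%). The member was an ETnERV3-int region of 982 bp on chromosome 17 (49443561 to 49444543, score 15.3, score per kb 15.6). In the list it is intronic to Mocs1, a gene of molybdenum cofactor synthesis, 15.7 kb from its TSS. The window belongs to the long noncoding RNA Gm41595, on the minus strand (49442068 to 49443479). It is shown because it is the only stretch of a member for which a sequence was at hand. It is written 5′ to 3′ on the minus strand for chr17:49443430-49443729, with the 169 bases inside the region in capitals:
Gm41595 promoter window: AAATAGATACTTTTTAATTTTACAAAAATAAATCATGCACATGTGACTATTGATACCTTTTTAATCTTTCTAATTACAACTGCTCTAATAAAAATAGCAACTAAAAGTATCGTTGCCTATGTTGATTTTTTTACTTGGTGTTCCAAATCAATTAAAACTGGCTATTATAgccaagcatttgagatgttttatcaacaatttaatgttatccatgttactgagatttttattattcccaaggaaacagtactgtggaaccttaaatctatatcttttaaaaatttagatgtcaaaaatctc
Its GC content was 26.3%, against a median of 52.7% over the 32851 windows of the table, of which 0.24% had a lower value. It held 1 CpG, against a median of 7. The repeat name refers to the centre of the region, so whether these bases belong to the retrovirus was not tested.

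Few genes had several members nearest to them. The 469 members had 329 nearest genes, of which 225 had 1 member, 85 had 2 and 19 had 3 or more. Protein-coding genes were nearest to 390 members, noncoding RNA genes to 67 and pseudogenes to 12. Among the 19, Gm10486 had 10, Gm10058 6, Gm10096 5 and Gm10488 4 members, all on X, where Gm10487 had 3. On autosomes 4 members each were nearest to 1700030C10Rik, Cenpw, Slc10a2 and Vmn2r87, a pheromone receptor gene. Besides the genes of the triplets, 3 members each were nearest to Ncam2, Mir6238 and Psg29, a pregnancy-specific glycoprotein gene. At Cenpw the 4 members were the 2 MMETn-int pairs on either side of the gene, with scores of 19.5 to 30.6. At Slc10a2 they were 1 MMETn-int pair and 1 MMERVK10C-int pair, with scores from 9.98 to 49.9.

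Each autosome carried members, at 0.171 ± 0.046 per Mb (SD, n = 19 chromosomes), from 0.086 on chromosome 19 to 0.266 on chromosome 6. The counts of ETn and MMERVK regions differed by chromosome. ETn regions outnumbered MMERVK regions on 11 autosomes, were fewer on 7 and were equal on 1. Chromosome 6 had 27 ETn and 12 MMERVK regions, chromosome 7 had 22 and 6, and chromosome 17 had 16 and 5. The reverse held on chromosome 8, with 5 ETn (95% Poisson interval 1.62 to 11.7) and 21 MMERVK regions (13.0 to 32.1), and on chromosome 4, with 10 and 24. Chromosome 19 had 0 ETn regions (upper bound 3.69) and 5 MMERVK regions. These counts take each region of a pair separately, and 43.7% of the members shared a locus with another. The Poisson intervals treat regions as independent and are therefore too narrow. IAP regions numbered 90 on chromosome 6 and 83 on chromosome 8.

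**Figure D3:**
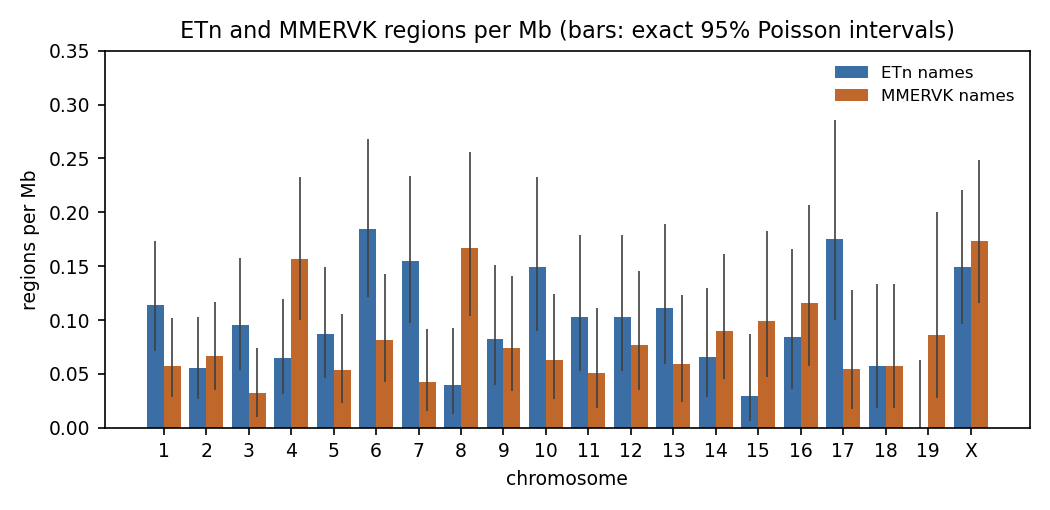
Regions per Mb (y axis) with ETn names and MMERVK names on chromosomes 1 to 19 and X (x axis); bars are densities and vertical lines are exact 95% Poisson intervals of the counts. Chromosome 6 has more ETn (27) than MMERVK regions (12), chromosome 8 has fewer (5 and 21), and X has 25 and 29. Each region of a pair is counted separately, so the intervals are too narrow.

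X carried 54 members, or 0.322 per Mb, above each of the 19 autosomes. The density was uneven, since 32 of the 54 lay in a single stretch of 10.2 Mb, described below, and 22 on the rest of X. X was also dense in regions of all kinds (3211), of which members made up 1.68%, a smaller share than on 12 autosomes. The names there differed from those on the autosomes. All 24 regions at MMERVK9C_I-int were on X, and 4 of 7 at ETnERV2-int and 7 of 32 at ETnERV3-int. Of MMERVK10C-int regions 5 of 190 (2.63%) were on X and of MMETn-int 12 of 206 (5.83%), near the 6.68% of IAP regions. Without X, ETn names numbered 230 and MMERVK names 185.

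The MMERVK9C_I-int regions lay in a single stretch of X of 10.2 Mb (25069878 to 35312912). They were intergenic by the class in the list, 500 to 1353 bp long, and scored 5.10 to 15.5. By the RefSeq gene table, the centres of the highest- and the lowest-scoring of them lay inside a gene. Per kb the MMERVK9C_I-int regions scored 10.2 to 15.2, near the median of 12.3 for all 735 regions of the stretch. Regions on the rest of X had a median of 25.4. The stretch also held 3 MMETn-int regions, of 2357 to 3028 bp, with a score per kb of 22.5 to 24.3, about the level of this name elsewhere. These 3 regions were longer than every MMERVK9C_I-int region, so the names could not be compared at equal length there. In addition 3 ETnERV3-int and 2 ETnERV2-int regions lay there, and 0 at MMERVK10C-int.

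The genes nearest to the MMERVK9C_I-int regions were 6 predicted protein-coding genes, Gm10486 (7 regions), Gm10058 (6), Gm10096 (5), Gm10487 (3), Gm10488 (2) and Gm4836 (1). The distances recurred between these genes. Of the 24 regions, 5 lay 75.5 to 75.9 kb from the TSS of Gm10486, Gm10487 or Gm4836. Another 3 lay 89.6 to 90.1 kb from Gm10486 or Gm10487, 3 lay 91.7 to 91.8 kb from Gm10096, 3 lay 96.2 to 96.9 kb from Gm10058 or Gm10488, and 3 lay 108 kb downstream of Gm10058 or upstream of Gm10096. Within each of the other sets the side of the TSS was the same. In 6 cases adjacent MMERVK9C_I-int regions started 11.4 to 16.9 kb apart, 3 of them at 14.1 to 14.4 kb. Whether these regions are copies of each other, and how reads were placed among them, was not tested.

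Elsewhere on X, MMERVK10C-int regions of 1992 and 2304 bp lay 26.8 kb from the predicted genes Gm5640 and Gm5936, with scores per kb of 20.2 and 22.0. ETnERV3-int regions of 1932 and 1933 bp lay 42.6 and 48.4 kb from Gm16405 and Gm16430, with 10.2 and 10.8. Each of these pairs had nearly the same score per kb in both regions.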

How the data were processed

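ChIP and input libraries of testis were labelled as 3 replicates each. Bowtie2 2.2.2, SAMtools, HOMER 4.6 and build mm10 are named per the submitters' processing notes. Roles of the tools, peak settings and the control library are not given in the sources used here. A single list was deposited by the authors with a score per region, whose normalization is not stated per the file headers, written by HOMER's annotation program. Other deposited columns used were region length and signed distance to the TSS, both in bp. Start and end were read as 1-based.

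Score was divided by length. Medians, quartiles, Wilson and Newcombe 95% intervals were computed with Python 3.11.15, pandas 2.3.3, NumPy 2.4.6 and SciPy 1.17.1 and drawn with matplotlib 3.10.9; interval coverage and the joining of regions were tested on simulated data. IAP and MERVL sets were chosen by name. The gene numbers of 465 members were found in a RefSeq gene table (GRCm38.p6, the patched form of the mm10 assembly). Chromosome spans ran from the first region to the last gene or region.

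Regions named were, per group, the 5 with the highest score and score per kb, the 3 longest and the top of each name. Genes named were those nearest to 3 or more members, at the 15 members closest to a TSS, hosts of the 10 highest intronic scores, and those nearest to named regions. Members, lists and rules were chosen with earlier results of these data known. A named host gene is not reported here.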

Additional observations from a re-analysis of the deposited data

How the results depend on the processing

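The score has no stated unit, and the depth behind it is unknown. A median or difference counted as moved when it left the main 95% interval, and a count when it changed by over 1.5 times. Of 74 recomputed values, 40 stayed within these bounds, 33 moved and 1 reversed. In the upper 50% and the upper 10% of the list by score, members numbered 245 and 23, the median score per kb was 24.2 and 26.5 for ETn and 29.7 and 31.9 for MMERVK, and the median length 1151 and 2846 bp for ETn and 1204 and 2539 bp for MMERVK. The log2 difference ETn minus MMERVK was then -0.29 and -0.26, and members minus IAP -0.36 and -0.36; the intergenic share in the upper 10% was 78.3%. With all chromosomes and contigs, ETn minus MMERVK reversed to 0.20 (95% interval -0.11 to 0.38, which includes 0). Members minus IAP was then -0.65, and the medians were 19.8 for ETn and 17.3 for MMERVK. The MMERVK length was 1089 bp and the intergenic share 88.6%. This setting adds 158 MMERVK9C_I-int regions. Without regions of 500 bp, the ETn median was 22.4 per kb, and lengths were 956 bp (ETn) and 991 bp (MMERVK). With the highest region kept of members within 10 kb, the MMERVK median was 26.3 per kb and 869 bp, and ETn minus MMERVK was -0.28. By score not divided by length the medians were 16.8 (ETn) and 20.4 (MMERVK), and the differences -0.28 (ETn minus MMERVK) and -0.30 (members minus IAP). By RefSeq genes 74.2% were intergenic, and the intronic difference, whose main interval includes 0, was -1.54 points. Only at 500 bp, an alternative chosen after seeing the data, the differences were -0.59 and -0.53; so was the restriction to MMETn-int and MMERVK10C-int, which gave -0.39. For the other shifts the cause was not tested. Values of single libraries are not given. No paired analysis was possible because of this, and leaving out replicates was not run for the same reason.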

Other observations

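Outside chromosomes 1 to 19 and X, the same names were at the centre of 224 regions, 218 of them on Y. MMERVK9C_I-int accounted for 155 of those on Y and ETnERV2-int for 50, while MMETn-int had 9 and MMERVK10C-int had 2. On the autosomes MMERVK9C_I-int had 0 regions. The median score per kb on Y was 12.8 at MMERVK9C_I-int, 13.5 at ETnERV2-int and 18.3 at MMETn-int, against 11.9, 12.7 and 21.8 on chromosomes 1 to 19 and X. On Y the MMERVK9C_I-int regions had a median length of 1473 bp, against 629 bp on X.

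Other LTR names were counted beside the members. RLTR10 and RLTR10C were at the centre of 32 and 29 regions, with a median score per kb of 15.5 and 20.9, and RLTR13A and RLTR13A2 at 58 and 45, with 22.1 and 24.8.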
